A study of Mus musculus with 18 samples.

Results

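Motile cilia beat by means of an axoneme, a ring of microtubule doublets around a central pair, and most of the genes described here encode its parts. The others are assembly factors of the cytoplasm, Spag and IQ motif genes of other roles, and a non-coding transcript. All were taken by name: every gene whose symbol begins with Dnah, Dnai, Dnaic, Dnaaf, Rsph, Tekt, Spag or Cfap and a number, or with Iqc and a letter, plus Dynlrb2, Dnali1, Drc1, Ak7, Tppp3 and the non-coding AU040972. The rule found 80 genes among the 15544 measured, out of 101 in the annotation. All 80 passed the filter on low values, a mean of at least 6 log2 units over the 18 libraries.

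RNA was sequenced from EpCAM+ cells, epithelial cells caught with magnetic beads by a surface adhesion protein, of mice aged 10 to 12 weeks. The series concerns lung epithelium, Foxa2, a forkhead transcription factor, and Falcor, a long non-coding RNA whose gene lies beside it. There were 5 wild-type libraries (numbered 1 to 5), 5 from Falcor-/- mice (6 to 10), which lack both Falcor copies, and 4 from Foxa2+/- mice (11 to 14), which carry 1 intact Foxa2 copy. The remaining 4 (15 to 18) are labelled Falcor+/-;Foxa2+/-, 1 copy of each gene lost, and are called double-heterozygous below. The labels give no strain, no way of deletion and no cell type restriction of the alleles, and do not say that each library is a separate animal, so the p-values measure the spread between these libraries only.

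The targeted genes were read first. Falcor averaged 10.18 ± 0.48 log2 units (SD, n = 5) in wild-type and 6.20 ± 0.68 (n = 5) in Falcor-/- libraries. It averaged 11.70 ± 0.21 (n = 4) in Foxa2+/- libraries and 11.66 ± 0.15 (n = 4) in those labelled double-heterozygous, which were therefore above wild type despite the lost copy. Foxa2 stood at 12.97 ± 0.08, 12.74 ± 0.23, 12.39 ± 0.05 and 12.36 ± 0.19 in the same order. Libraries of the same genotype correlated across genes at r between 0.960 and 0.981, and libraries of different genotypes at 0.934 to 0.973. Pan-epithelial markers (20 genes) averaged 13.54 log2 units in wild type and alveolar type 2 markers (7 genes) 17.74, but 19 endothelial markers were also present at a mean of 12.58 in wild type.

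In each doublet, dynein heavy chains of the outer and inner arms are the motors, and intermediate and light chains hold them to the tubule. Assembly factors build the arms in the cytoplasm, the nexin-dynein regulatory complex links neighbouring doublets, and radial spokes pass signals from the central pair to the arms. Tektins and other microtubule inner proteins line the inside of the doublets. In lung many, though not all, of these genes are used by the multiciliated cells of the airways. There Foxj1 is the master regulator of the programme and RFX factors bind X-box sequences in the promoters.

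The promoters of cilia genes often carry an RFX half-site, GTTGCC, close to the start. The 6 sequences below show where these or like letters lie, for members that were lower in Foxa2+/- than in Falcor-/- libraries with the smallest p, leaving out Cfap53 and Tppp3. RefSeq (GRCm38.p6) promoter windows, 250 bases before to 50 after a gene's start, were matched for 65 of the 80 members and gave 73 windows. Each line shows the 150 bases before the start, 5′ to 3′ on the gene's strand, with a half-site (in Iqcg, Dynlrb2 and Drc1) or a looser X-box match (in Dnaic1, Dynlrb2 and Cfap45) in capitals.
Dnaic1, chr4:41569644-41569793, plus strand: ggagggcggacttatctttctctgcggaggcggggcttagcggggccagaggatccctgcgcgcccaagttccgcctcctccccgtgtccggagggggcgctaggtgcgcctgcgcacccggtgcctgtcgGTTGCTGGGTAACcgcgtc
Iqcg, chr16:33056187-33056336, minus strand: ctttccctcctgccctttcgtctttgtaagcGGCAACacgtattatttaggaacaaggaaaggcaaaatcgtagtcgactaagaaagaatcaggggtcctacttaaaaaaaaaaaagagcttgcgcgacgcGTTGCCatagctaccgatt
Cfap126, chr1:171113836-171113985, plus strand, the first of 3 windows: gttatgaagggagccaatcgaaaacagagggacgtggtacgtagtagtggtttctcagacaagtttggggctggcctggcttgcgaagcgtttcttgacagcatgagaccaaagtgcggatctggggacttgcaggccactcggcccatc
Dynlrb2, chr8:116504865-116505014, plus strand: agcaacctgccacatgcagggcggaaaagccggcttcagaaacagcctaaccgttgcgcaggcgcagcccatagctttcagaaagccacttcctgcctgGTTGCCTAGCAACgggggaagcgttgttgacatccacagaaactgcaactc
Drc1, chr5:30281243-30281392, plus strand: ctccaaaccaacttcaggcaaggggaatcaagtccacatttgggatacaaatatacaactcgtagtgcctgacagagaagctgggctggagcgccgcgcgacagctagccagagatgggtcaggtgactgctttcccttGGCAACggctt
Cfap45, chr1:172520980-172521129, plus strand: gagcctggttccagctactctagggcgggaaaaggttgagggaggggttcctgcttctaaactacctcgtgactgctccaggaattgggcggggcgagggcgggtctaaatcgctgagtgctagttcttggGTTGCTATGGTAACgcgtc

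The capitals begin 19 bases before the start in Dnaic1 and Cfap45, 51 in Dynlrb2, 11 in Drc1, and 119 and 19 in Iqcg. The Cfap126 stretch holds no match, which says only that these letters are not in it. Searched on both strands, GTTGCC was in 29 of the 73 member windows, 39.7%, against 12.5% of all 32851 windows. The full X-box, GTTGCC followed after any 2 bases by GGNAAC, was in 2.74% of member windows and 0.298% of all windows, and any such match also contains the half-site. The looser forms in capitals, GTTGC followed after any 3 bases by GNAAC or by GGNAAC, were chosen after the windows were seen. Either of them was in 15 of the 73 member windows, 20.5%, against 1.13% of all. Since the choice followed a look at the windows, this contrast is not independent of it. The forkhead motif TGTTTAC was in 6.85% of member windows and 3.65% of all. These are matches of letters, and no binding was measured.

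The wild-type levels of the 80 members ran from 7.64 log2 units for Tekt5, a tektin, to 15.54 for Tppp3, of the tubulin polymerization promoting family, with a median of 11.64. Long genes collect more reads, so genes were ranked after subtracting log2 of the exonic length in kb. On that per-kb log2 scale the median was 9.47 for the members and 8.98 for the 14994 genes with a length, and 51 of the 80 members lay above the latter.

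Per kb, Tppp3 came first at 14.66, followed by Dynlrb2, a roadblock-type dynein light chain, at 13.25, the spoke head protein Rsph1 at 12.55 and the assembly factor Cfap298 at 12.07. The non-coding AU040972 stood at 11.67 and the inner-arm light intermediate chain Dnali1 at 11.57. At the other end were the heavy chains Dnah8 at 3.68 and Dnah17 at 5.23, and Iqch at 5.22. By role, the per-kb median was 10.71 for the 4 intermediate and light chains and 10.31 for the 9 spoke genes, 9.79 for the 13 tektins and microtubule inner proteins, and 9.32 for the 7 inner-arm and 8.45 for the 5 outer-arm heavy chains. Within a genotype the median SD of a member was 0.24, and neighbours such as AU040972 and Dnali1 lay closer together than that. Rsph1 had a wider SD, 0.51, in wild type.

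Per kb, Dnah5 led the outer-arm heavy chains at 9.18 and Dnah6 the inner-arm heavy chains at 10.31. Drc1, a core subunit of the nexin-dynein regulatory complex, led its group at 11.08, the central pair protein Spag6l at 9.72 and the microtubule inner protein Cfap126 at 11.35. Spag7 led the other Spag genes at 11.48 and Iqce the other IQ motif genes at 8.60. Without the length correction the order changes, and Cfap69 at 12.49, Cfap20, an inner junction protein of the doublet, at 12.68, and Spag9 at 13.96 had the highest levels of the central pair, inner protein and other Spag groups.

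Averaged per library over the 80 members, wild type gave 11.50 ± 0.11 log2 units (SD, n = 5), Falcor-/- 11.64 ± 0.23 (n = 5), Foxa2+/- 11.28 ± 0.22 (n = 4) and double-heterozygous 11.62 ± 0.04 (n = 4). The wild-type libraries 1 to 5 gave 11.39, 11.45, 11.64, 11.57 and 11.42. Falcor-/- libraries 6 to 10 gave 11.92, 11.32, 11.58, 11.79 and 11.57. Library 7 was thus below every wild-type library, whereas library 6 was above every other library of the study. Foxa2+/- libraries 11 to 14 gave 11.35, 11.49, 10.98 and 11.30, and double-heterozygous libraries 15 to 18 gave 11.63, 11.64, 11.65 and 11.56. Each Foxa2+/- mean was below each double-heterozygous mean, while the ranges of wild type overlapped those of every mutant genotype.

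**Figure D1:**
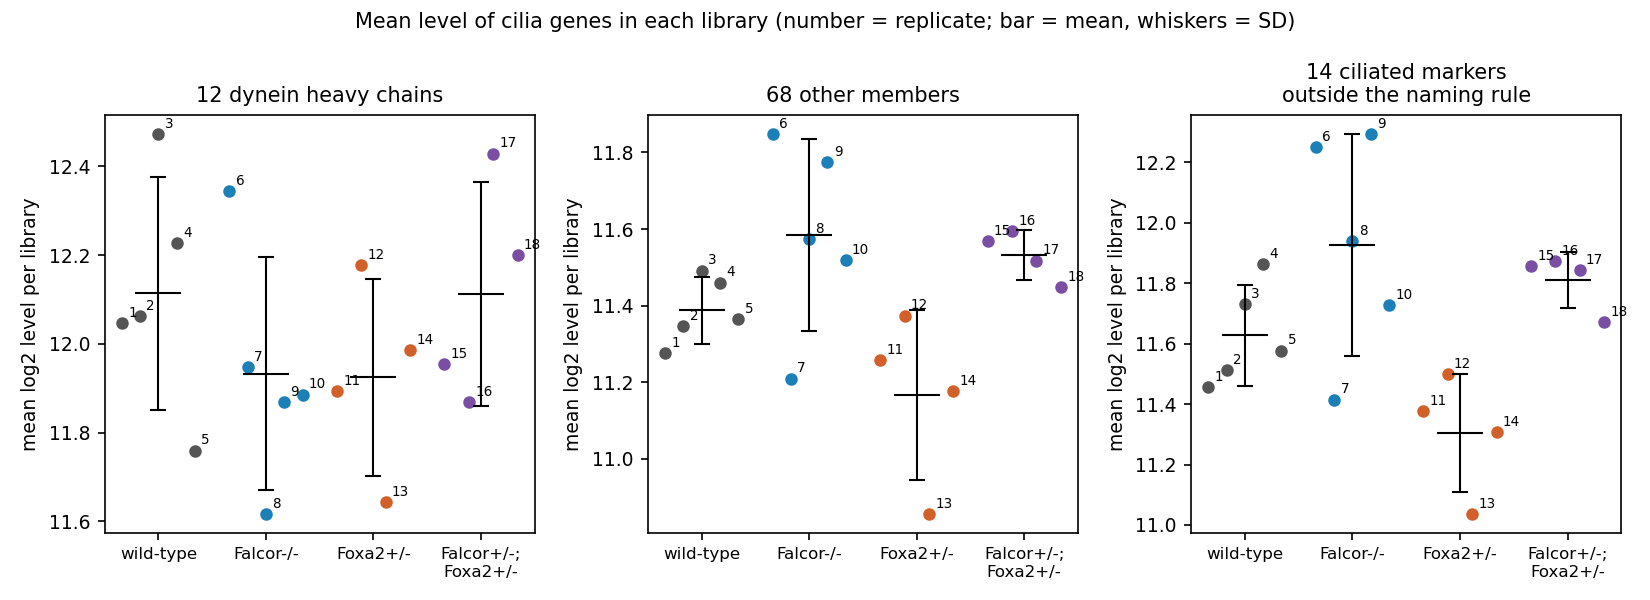
Mean log2 level per library of the 12 dynein heavy chains, the 68 other members and 14 ciliated-cell markers outside the naming rule, by genotype; points are libraries with their number, bars the mean and whiskers the SD. Library 7 is the lowest Falcor-/- library among the 68 other members and library 13 the lowest Foxa2+/- library in all 3 panels.

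Single libraries carried much of the spread. Falcor-/- library 7 was the lowest of its genotype for 50 of the 80 members, against 27.7% of all genes, and library 6 the highest for 45, against 15.3%. Foxa2+/- library 13 was the lowest of its genotype for 67 members, against 26.0% of all genes. The same 2 libraries, 7 and 13, were the lowest of their genotypes in the mean of the 14 ciliated-cell markers outside the naming rule. That marker mean was 11.63 ± 0.17 for wild-type, 11.93 ± 0.37 for Falcor-/-, 11.31 ± 0.20 for Foxa2+/- and 11.81 ± 0.09 for double-heterozygous libraries. In bulk RNA of this kind, fewer ciliated cells and less cilia RNA per cell cannot be told apart.

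Against wild type, 6 cilia genes rose and 1 fell in Falcor-/- libraries (limma, Benjamini-Hochberg adjusted p under 0.05 over 15249 genes). Beside them stands a background of 5.23% of all genes called higher, 4.24% lower and 9.47% in either direction, so 7 of 80 members, 8.75%, is near the background. The 6 were Dnaic1, an outer-arm intermediate chain, the inner proteins Cfap53, Cfap20 and Spag8, the spoke stalk gene Rsph3b and AU040972. The 1 that fell was the inner-arm heavy chain Dnah7b. The median change of the 80 members was 0.14 against 0.03 for all genes, and 58 members had a mean above wild type. At an unadjusted p under 0.05 (limma) there were 25 of the 80 members, beside 5109 of all 15249 genes.

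Dnaic1 (ENSMUSG00000061322, chromosome 4) stood at 10.77, 10.96, 11.22, 11.16 and 11.08 log2 units in wild-type libraries 1 to 5. In Falcor-/- libraries 6 to 10 it stood at 12.00, 11.21, 11.91, 11.77 and 11.55. It rose by 0.65 (SE 0.14, limma adjusted p = 0.0169). Only library 7 fell within the wild-type range, and the other 4 Falcor-/- libraries were above it.

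Cfap53, a microtubule inner protein, stood at 11.16, 10.69, 11.41, 11.27 and 11.18 in wild type. In Falcor-/- it stood at 12.32, 11.63, 11.61, 12.11 and 11.82. The groups did not overlap, and it rose by 0.76 (SE 0.17, limma adjusted p = 0.0195). Library 6 was again the highest, and wild-type library 2 the lowest.

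AU040972 (ENSMUSG00000091523, chromosome 11) is a non-coding transcript within the gene Nf1 on the opposite strand. It stood at 11.65, 10.86, 12.02, 12.05 and 12.08 in wild type and at 13.16, 12.08, 12.95, 13.28 and 13.12 in Falcor-/-. With a rise of 1.19 (SE 0.29, limma adjusted p = 0.0262) it had the largest change of the 7. Library 7 was level with the top of wild type and the other 4 Falcor-/- libraries were above every wild-type library. In the annotation used here it shares no exonic base with Nf1. Whether the counting used strand is not given in the sources used here, so reads of unspliced Nf1 RNA cannot be told apart from its own.

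Rsph3b (chromosome 17) stood at 10.87, 10.59, 10.95, 10.84 and 10.24 in wild type and at 11.41, 11.18, 11.34, 11.19 and 11.09 in Falcor-/-. The groups did not overlap, and it rose by 0.55 (SE 0.14, limma adjusted p = 0.0291). It shares 54.3% of its 50-base words with its near copy Rsph3a, so reads may be split between the pair. Cfap20 rose by 0.36 (SE 0.09, adjusted p = 0.0310) and Spag8 by 0.62 (SE 0.18, adjusted p = 0.0399), and for Spag8 library 7, at 10.34, lay inside the wild-type range of 10.30 to 10.68.

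Dnah7b (chromosome 1) stood at 11.30, 11.19, 11.59, 11.37 and 10.97 in wild type and at 11.02, 10.79, 10.64, 10.77 and 10.85 in Falcor-/-. It fell by 0.47 (SE 0.13, limma adjusted p = 0.0347), to 72.2% of wild type, with library 6 inside the wild-type range. Of its 50-base words, 18.6% are also in Dnah7a and 23.6% in Dnah7c, which were not analysed here.

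By role, all 4 intermediate and light chains (median difference 0.36) and all 7 assembly factors (0.20) had means above wild type, as had 8 of 9 spoke genes (0.24) and 12 of 13 tektins and microtubule inner proteins (0.34). All 7 inner-arm heavy chains had means below it (median -0.23). A shift of each library to an equal mean of 20 pan-epithelial genes would lower every one of these differences by the same amount, -0.12, and left the members' median at 0.02. Among those that did not pass were Cfap126 at 0.55 (adjusted p = 0.0561), Iqck at 0.40 (0.0534), Dynlrb2 at 0.52 (0.0916), Cfap298 at 0.36 (0.0873), Spag7 at 0.30 (0.0679) and Tppp3 at 0.33 (0.102). Dnah5 stood at 13.07, 12.99, 13.53, 13.29 and 12.86 in wild type and at 13.48, 12.97, 12.48, 12.69 and 12.76 in Falcor-/-, a difference of -0.27 (95% interval -0.69 to 0.14) that did not pass. Its libraries overlapped, with library 6 near the top of wild type. Without library 7, 27 members were higher and 2 lower, and the number called was 1 without wild-type library 1 or 2, 2 without library 8 or 9, 3 without library 6 and 4 without wild-type library 4. The endothelial marker mean was 11.89 ± 0.68 in Falcor-/-, and with it as a covariate 0 members were called (limma, 18 at an unadjusted p under 0.05).

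**Figure D2:**
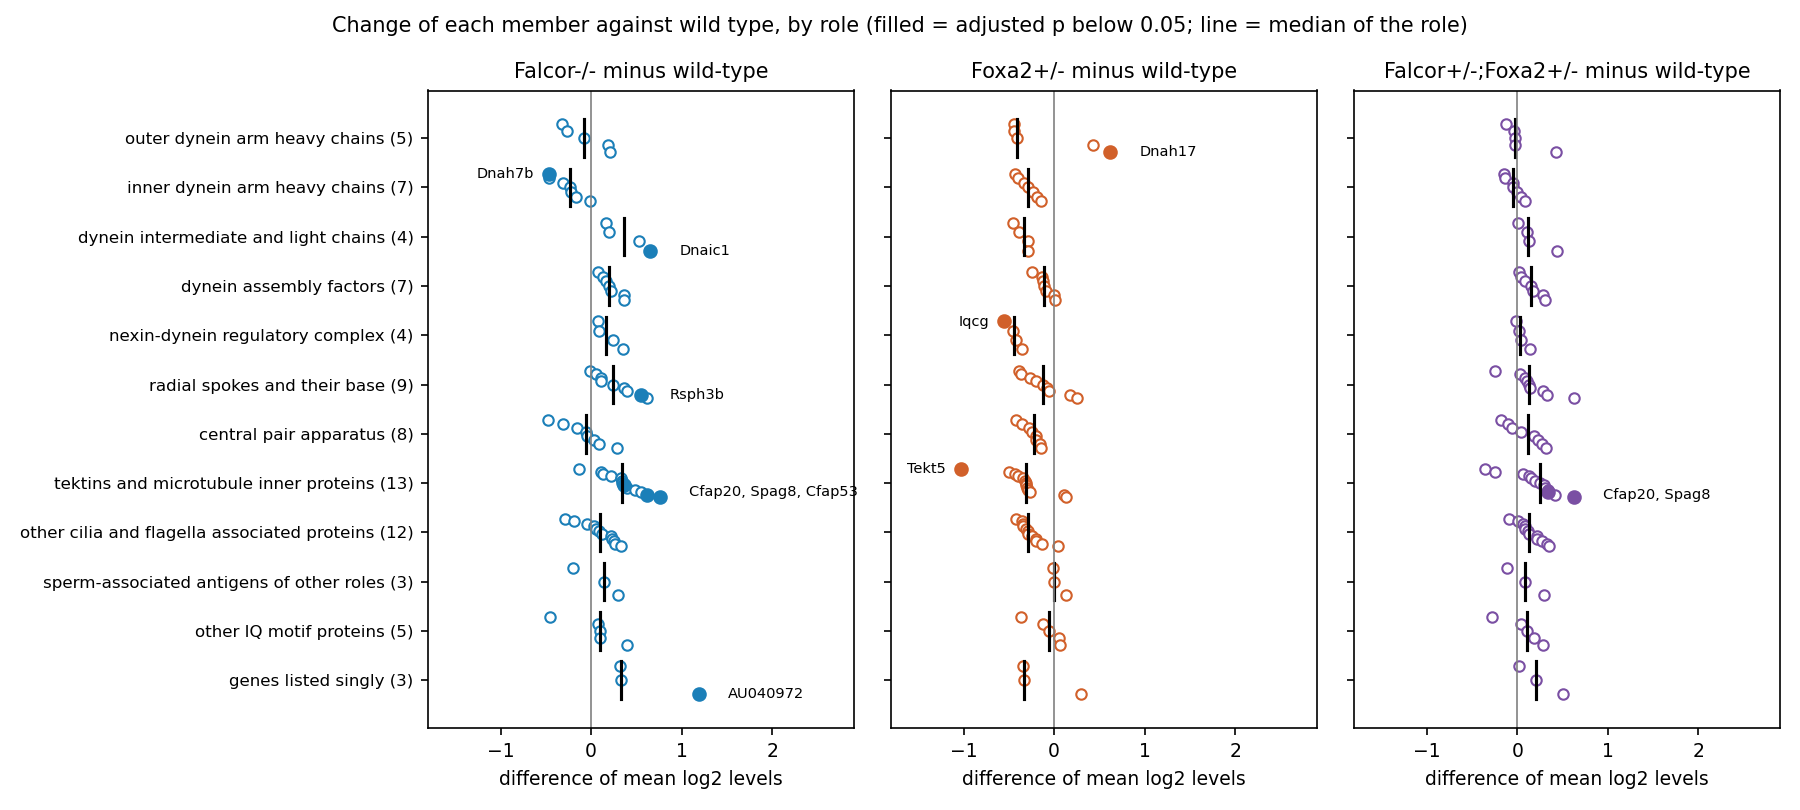
Difference of mean log2 level from wild type for each of the 80 members, grouped by role (number of genes in brackets), in the 3 mutant genotypes; filled points passed an adjusted p of 0.05 and bars are role medians. In Falcor-/- the bars for heavy chains lie at -0.08 and -0.23 and those for light chains and inner proteins at 0.36 and 0.34, while in Foxa2+/- the bars of the 8 axonemal roles from heavy chains to inner proteins all lie below 0.

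In Foxa2+/- libraries, 2 cilia genes fell and 1 rose against wild type. The background is 4.15% of all genes called lower, 1.96% higher and 6.11% in either direction. Iqcg of the nexin-dynein regulatory complex and the tektin Tekt5 fell, and the outer-arm heavy chain Dnah17 rose. The members' median change was -0.27, against 0.04 for all genes, with 68 of the 80 means below wild type. At an unadjusted p under 0.05 (limma) there were 22 members, beside 2931 of all 15249 genes.

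Iqcg (ENSMUSG00000035578, chromosome 16) stood at 11.73, 11.91, 11.52, 11.91 and 11.93 log2 units in wild type and at 11.32, 11.43, 11.03 and 11.19 in Foxa2+/- libraries 11 to 14. The groups did not overlap. It fell by 0.56 (SE 0.12, limma adjusted p = 0.00980), and kept its call when any 1 of the 9 libraries was left out (highest adjusted p 0.0482). Of its 6164 exonic bases, 2965 are shared with Lrch3 on the opposite strand, and reads of the pair cannot be told apart without strand.

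Dnah17 (ENSMUSG00000033987, chromosome 11) moved the other way. It stood at 9.29, 9.50, 9.35, 8.78 and 9.26 in wild type and at 9.58, 9.98, 10.00 and 9.87 in Foxa2+/-. The groups did not overlap, and it rose by 0.62 (SE 0.16, limma adjusted p = 0.0267). It is a low-level heavy chain per kb, and wild-type library 4 was its lowest.

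Tekt5, the member with the lowest mean over the 18 libraries, stood at 7.75, 7.94, 6.999, 7.43 and 8.10 in wild type and at 6.28, 6.80, 6.03 and 7.34 in Foxa2+/-. It fell by 1.03 (SE 0.28, limma adjusted p = 0.0388), to 48.9%, and library 14 lay within the wild-type range. Leaving out 1 library ended the Tekt5 call in 7 of 9 cases and the Dnah17 call in 5 of 9.

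By role, all 4 nexin-dynein regulatory complex genes (median difference -0.44), all 4 intermediate and light chains (-0.33), all 7 inner-arm heavy chains (-0.29) and all 8 central pair genes (-0.22) had means below wild type. Among those that did not pass were the heavy chains Dnah7b at -0.43 (adjusted p = 0.0744) and Dnah9 at -0.44 (0.0851), and Drc1 at -0.46 (0.0994). Dnah5, at 13.12, 12.88, 12.35 and 12.62 in Foxa2+/-, gave -0.41 (95% interval -0.85 to 0.04) and did not pass. Spag17, a central pair protein, stood at 11.58, 11.44, 11.90, 11.16 and 11.20 in wild type and at 11.25, 11.13, 10.77 and 10.98 in Foxa2+/-, a difference of -0.43 that did not pass (adjusted p = 0.277). Both genes overlapped between the groups and were lowest in library 13.

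The endothelial marker mean fell from 12.58 ± 0.61 in wild type to 10.51 ± 0.24 in Foxa2+/-, with 17 of 19 markers lower, as were 4 of 6 alveolar type 1 and 4 of 8 mesenchymal markers, while 3 of 20 pan-epithelial markers were higher. Their part in the cilia gene differences was not tested beyond a fit with the endothelial mean as a covariate. With it, no member was called in this comparison and 3 had an unadjusted p under 0.05 (limma). That mean ran from 11.54 to 13.09 in wild type and from 10.35 to 10.85 in Foxa2+/-, without overlap. The fit therefore cannot tell it apart from genotype, and no gene of any kind was called. When each library was instead shifted to an equal mean of 20 pan-epithelial genes, the median of all genes moved by -0.17, the members' median was -0.45 and 25 members were called lower. This shift lowers the difference of every gene by the same amount, and the share of all genes called lower with it is not given here. Without wild-type library 4 or library 13 the number of members called was 1.

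In double-heterozygous libraries, 2 cilia genes rose against wild type and 0 fell, against a background of 7.21% higher, 7.57% lower and 14.8% in either direction. At an unadjusted p under 0.05 (limma) there were 12 members, beside 4542 of all 15249 genes. Both genes that rose encode microtubule inner proteins. Cfap20 stood at 12.62, 12.70, 12.71, 12.56 and 12.81 in wild type and at 13.16, 13.23, 12.82 and 12.88 in double-heterozygous libraries, a rise of 0.34 (SE 0.10, limma adjusted p = 0.0292). Spag8 stood at 10.30, 10.50, 10.52, 10.68 and 10.60 and at 11.24, 11.30, 11.05 and 11.00, a rise of 0.63 (SE 0.19, adjusted p = 0.0309). Neither overlapped between the groups, and libraries 15 and 16 were the highest for both.

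The members' median difference was 0.11, against 0.07 for all genes, and it was -0.15 after the pan-epithelial shift, which moved the all-gene median by -0.26, ended both calls and gave 2 other members called lower. Dnaic1, at 11.09, 11.08, 11.05 and 10.97, lay inside its wild-type range. Dynlrb2 stood at 13.08 and 13.29 in libraries 15 and 16 but at 12.39 and 12.58 in libraries 17 and 18, against 12.19 to 12.54 in wild type, a difference of 0.44 that did not pass (adjusted p = 0.185). The number called was 0 without library 15, 16 or wild-type library 1 (limma, 3 to 5 at an unadjusted p under 0.05) and 1 without wild-type library 2 or 4. In these libraries 17 of 19 endothelial, 7 of 8 mesenchymal and 4 of 6 alveolar type 1 markers were lower than in wild type, and 7 of 20 pan-epithelial markers were higher. The endothelial marker mean was 10.21 ± 0.25, and with it as a covariate 0 members were called and 0 had an unadjusted p under 0.05 (limma). That mean ran from 9.86 to 10.42, below the lowest wild-type value of 11.54, so this fit cannot tell it apart from genotype.

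The mutant genotypes were also compared with each other, and these comparisons share libraries with those above. Between Foxa2+/- and Falcor-/-, 31 cilia genes were lower in Foxa2+/- and 1 was higher. That is 38.75% of the members lower, beside a background of 8.56% of all genes lower, 8.1% higher and 16.7% in either direction. The 31 ranged from -1.14 to -0.37 (median -0.62), that is from 45.3% to 77.1% of the Falcor-/- level. The groups did not overlap for 7 of them. The share of all genes without overlap was not determined, here or in the other comparisons, so this count has no background. Over all 80 members the median was -0.36, against 0.00 for all genes, and 69 means were lower in Foxa2+/-.

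Some markers of other cells were lower in Foxa2+/- in the same comparison: 16 of 19 endothelial (median difference -1.52), 4 of 8 mesenchymal (-0.78) and 3 of 6 alveolar type 1 markers (-0.76). Of the 8 mesenchymal markers, 3 had higher means in Foxa2+/-. Of 7 leukocyte markers (-0.12), Csf1r was higher in Foxa2+/- (0.97) and 0 were lower. The endothelial mean per library ran from 11.23 to 13.01 in Falcor-/- and from 10.35 to 10.85 in Foxa2+/-, and the mesenchymal mean from 10.70 to 12.21 and from 9.69 to 11.63. Of the 14 ciliated-cell markers outside the naming rule 7 were lower (-0.62). All of the 14 but Fam183b and 1110017D15Rik also belong to the further axonemal genes or the regulators counted below. Of the 7, Ccdc113, Enkur, Mns1, Ccno, Cdc20b and Foxj1 are counted again there. The part of the mesenchymal and alveolar type 1 markers in the cilia gene differences was not tested.

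By role, 10 of 13 tektins and microtubule inner proteins, all 4 intermediate and light chains and all 4 nexin-dynein regulatory complex genes were lower. The count was 3 of 9 spoke genes (Rsph14, Rsph3a and Rsph4a), 2 of 7 assembly factors (Cfap298 and Dnaaf1), 1 of 8 central pair genes (Spag6l) and 4 of 12 other Cfap genes, besides Ak7, Tppp3 and Iqck. Among the 12 dynein heavy chains 0 passed (limma, 2 at an unadjusted p under 0.05), and their median was -0.08 against -0.42 for the 68 other members. Cfap97 was the 1 higher gene, at 0.23 (adjusted p = 0.0337).

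Dnaic1 stood at 10.88, 11.01, 10.32 and 10.79 in Foxa2+/-, below all 5 Falcor-/- libraries (11.21 to 12.00), a difference of -0.94 (SE 0.15, limma adjusted p = 0.00250). Cfap53 stood at 11.22, 11.09, 10.54 and 10.64 against 11.61 to 12.32, a difference of -1.02 (SE 0.18, adjusted p = 0.00424). Iqcg, at 11.03 to 11.43 in Foxa2+/-, was below the Falcor-/- values of 12.06, 11.64, 11.73, 12.26 and 11.75, at -0.64 (SE 0.12, adjusted p = 0.00577). In each of these 3 genes library 13 was the lowest of all 18 libraries.

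Tppp3, the highest member also per kb, stood at 15.40, 15.36, 14.98 and 15.08 in Foxa2+/- and at 16.23, 15.40, 15.82, 16.06 and 15.85 in Falcor-/-, a difference of -0.67 (SE 0.14, limma adjusted p = 0.00809). Cfap126, another inner protein, stood at 12.00, 12.06, 11.41 and 11.98 against 12.97, 12.05, 12.79, 13.14 and 12.70, a difference of -0.87 (SE 0.19, adjusted p = 0.00931). Dynlrb2, at 12.20, 12.32, 11.44 and 11.82 against 12.89, 12.37, 12.91, 13.47 and 12.98, gave -0.98 (adjusted p = 0.00976). Library 7 was the Falcor-/- library nearest to Foxa2+/- in all 3.

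For Tekt1 and Ak7, a ciliary adenylate kinase, the wild-type mean lay between those of the 2 mutants. For Tekt1 the wild-type libraries ran from 11.56 to 11.86, Falcor-/- gave 12.39, 11.47, 12.11, 12.51 and 11.97, and Foxa2+/- gave 11.50, 11.65, 11.13 and 11.36. For Ak7, wild type ran from 12.90 to 13.25, Falcor-/- gave 13.85, 12.77, 13.36, 13.44 and 13.26, and Foxa2+/- gave 12.86, 12.91, 12.38 and 12.61. Tekt1 differed by -0.68 and Ak7 by -0.65 between the mutants (both limma adjusted p = 0.0150), with library 7 inside the Foxa2+/- range. Dnali1 was -0.49 (adjusted p = 0.0372). Rsph1 varied widely within genotypes, from 11.93 to 14.00 in Foxa2+/-, and gave 0.06 (95% interval -0.67 to 0.79).

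The calls for Dnaic1, Cfap53, Iqcg, Tppp3, Cfap126, Dynlrb2 and Drc1 were kept when any 1 library was left out. The number of members called was 7 without library 13, 13 without library 6, 14 without library 9, 16 without library 14, 21 without library 10 and 44 without library 7, and 33 without libraries 7 and 13 together. It was 0 with the endothelial marker mean as a covariate, where 26 had an unadjusted p under 0.05 (limma) and the members' median stayed at -0.39. The endothelial mean did not overlap between these genotypes, so this fit cannot tell it apart from genotype. The number called was also 0 with the ciliated-cell marker mean as a covariate (limma, 8 at an unadjusted p under 0.05). The members' median was then 0.03. That covariate is itself a mean of cilia genes and their regulators in the same libraries, so this fit takes out any change that cilia genes share.

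**Figure D3:**
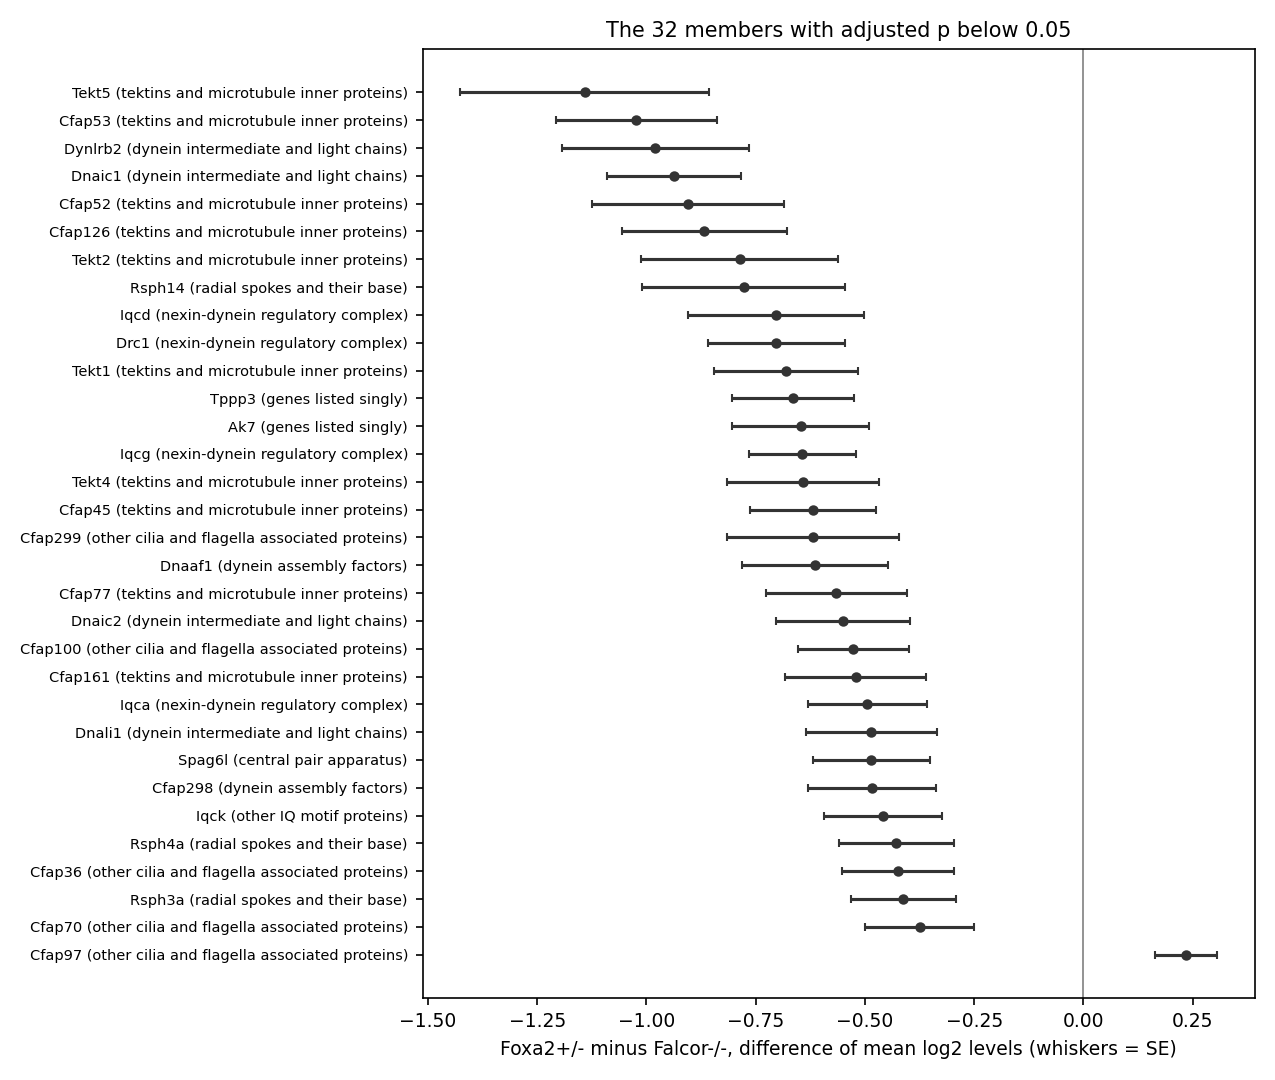
Difference of mean log2 level, Foxa2+/- minus Falcor-/-, for the 32 members with an adjusted p under 0.05, with the SE as whiskers and the role in brackets. Tekt5 at -1.14 and Cfap53 at -1.02 lie farthest from 0, no dynein heavy chain is listed, and Cfap97 at 0.23 is the only gene to the right of 0.

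**Figure D4:**
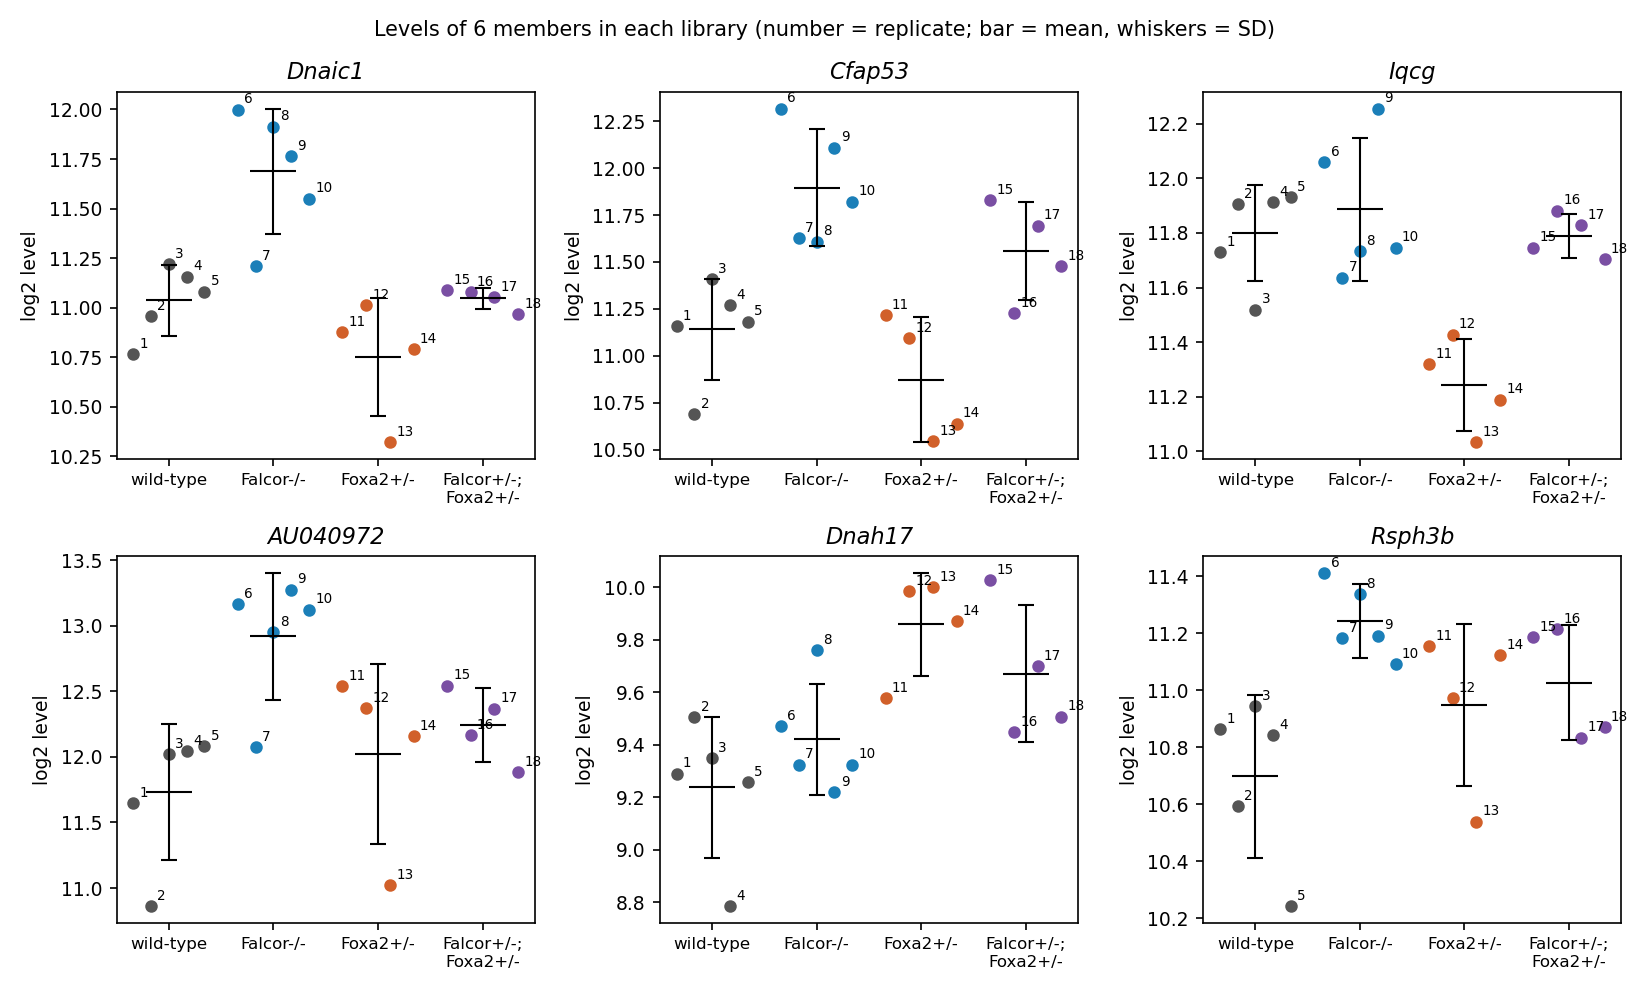
Log2 level of Dnaic1, Cfap53, Iqcg, AU040972, Dnah17 and Rsph3b in each of the 18 libraries by genotype, with library numbers; bars are means and whiskers the SD, and each panel has its own axis. Dnaic1 and Cfap53 are highest in Falcor-/- library 6, Iqcg is lower in all 4 Foxa2+/- libraries than in any other library, and Dnah17 is lowest in wild-type library 4.

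Between the genotypes that share the loss of 1 Foxa2 copy, 4 cilia genes were higher in double-heterozygous than in Foxa2+/- libraries and 0 were lower, beside a background of 1.06% of all genes higher, 1.37% lower and 2.43% in either direction. Iqcg stood at 11.75, 11.88, 11.83 and 11.70 in double-heterozygous libraries and was higher by 0.55 (limma adjusted p = 0.0340). Cfap206, at the base of the spokes, stood at 12.39, 12.45, 12.33 and 12.30 against 12.07, 11.98, 11.53 and 11.65, a difference of 0.56 (adjusted p = 0.0341). Dynlrb2 was higher by 0.89 (adjusted p = 0.0469) and Cfap221 of the central pair, at 10.22, 10.62, 10.29 and 10.15 against 9.79, 9.94, 9.45 and 9.75, by 0.59 (adjusted p = 0.0476). None of the 4 overlapped between the groups.

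All 13 tektins and microtubule inner proteins and all 12 other Cfap genes had higher means in double-heterozygous libraries, though 0 of either role passed (limma, 11 and 7 at an unadjusted p under 0.05). The median over the members was 0.36, against 0.02 for all genes, with 74 of 80 means higher. At an unadjusted p under 0.05 (limma) there were 42 members, beside 2769 of all 15249 genes. The number called was 0 without library 13, 14, 15 or 16 (limma, 25 to 35 at an unadjusted p under 0.05) and 1 without library 17. It was 0 after the pan-epithelial shift (31 at an unadjusted p under 0.05).

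Double-heterozygous and Falcor-/- libraries differed in 3 cilia genes, 2 higher and 1 lower, beside a background of 2.15% higher, 3% lower and 5.15% in either direction. Dnaic1 was lower, at -0.64 (SE 0.15, limma adjusted p = 0.0210). Dnah7b, at 11.09, 11.25, 11.48 and 11.46, was higher by 0.51 (adjusted p = 0.0393). Cfap97 was higher by 0.28 (adjusted p = 0.0291). None of the 3 overlapped between the groups, and the number called was 0 without library 17 or 18 (limma, 6 at an unadjusted p under 0.05 in each case) and 1 without library 6 or 10.

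The change of a member moved with the length of its transcript, and so did the change of genes at large. Between Falcor-/- and wild type the median difference of the members was 0.34 for the 18 with under 2 kb of exons, 0.21 for the 21 with 2 to 4 kb, 0.11 for the 20 with 4 to 8 kb and -0.17 for the 21 with over 8 kb. Over all genes with a length the same steps were 0.25, 0.11, -0.03 and -0.18. Spearman's rho between the difference and exonic length was -0.68 over the 80 members and -0.44 over 14739 genes, as a description across genes, which are not independent replicates.

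The dynein heavy chains have 12.0 to 26.8 kb of exons and the intermediate and light chains 0.556 to 4.57 kb. In Falcor-/- minus wild type the median was -0.23 over the 12 heavy chains, 10 of them below 0, and 0.20 over the 68 other members. After each library's trend with length over all genes was removed, a step added after the data were seen, these medians were 0.00 and 0.11. Dnah7b then stood at -0.17 and was no longer called (adjusted p = 0.394).

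Between Foxa2+/- and Falcor-/- the members' median difference was below 0 in each of the 4 length classes, although 11 of the 80 members, 5 of them heavy chains, had differences above 0. The medians were -0.65, -0.42, -0.40 and -0.13 from the shortest to the longest, against -0.16, -0.07, 0.04 and 0.16 for all genes. With the length trend removed, 32 members were lower and 1 higher, 28 of them also called without that step, and the heavy chains' median was -0.30. The share of all genes called with that step is not given here, so these counts have no background. Between Foxa2+/- and wild type the members showed little such gradient, with medians of -0.30, -0.27, -0.27 and -0.24.

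The gradient differed between libraries of 1 genotype. The median departure of genes under 2 kb minus that of genes over 8 kb was between -0.19, in library 7, and 0.49 in Falcor-/-, and between -0.32 and 0.05 in wild type. In double-heterozygous libraries it was 0.34 and 0.41 in libraries 15 and 16 but -0.26 and -0.21 in libraries 17 and 18. In Foxa2+/- it stayed between -0.18 and -0.03.

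**Figure D5:**
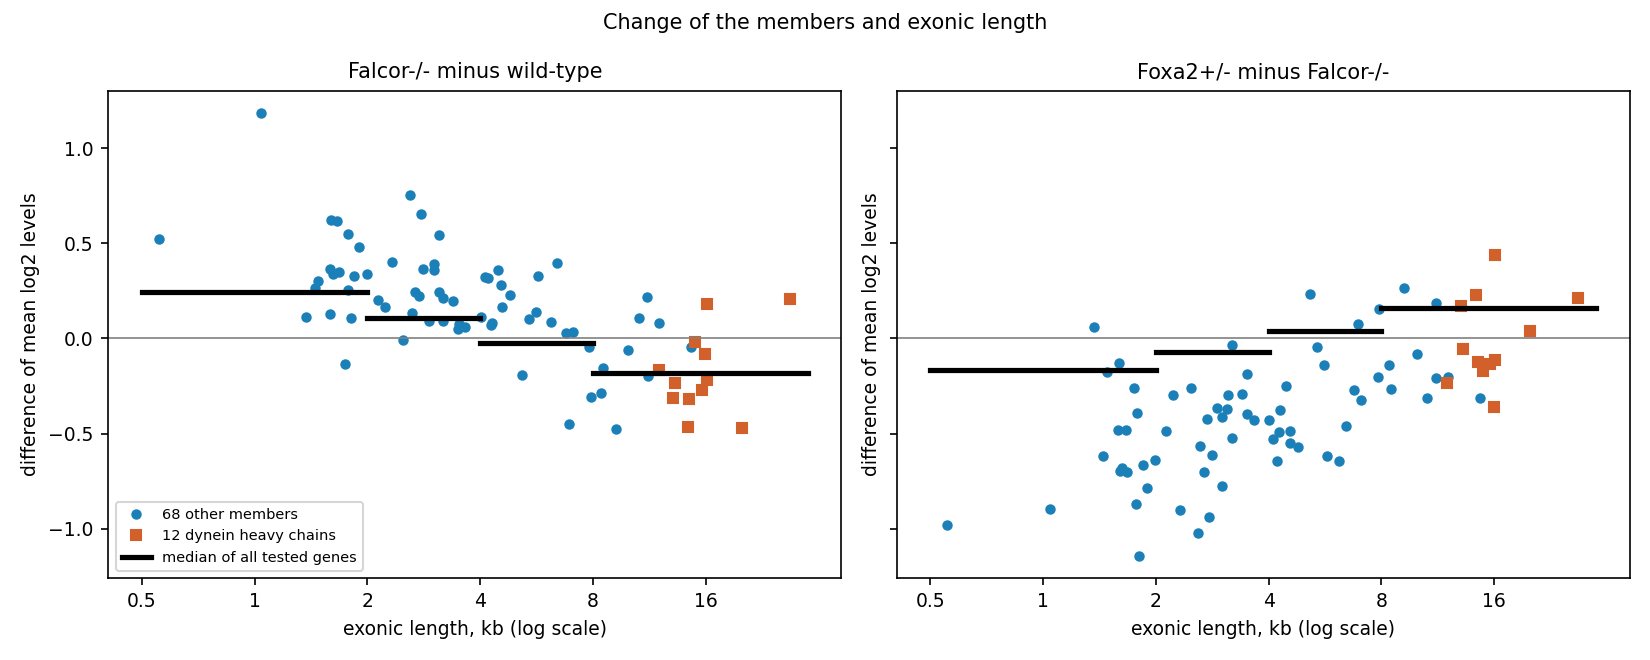
Difference of mean log2 level against exonic length in kb (log scale) for the 12 dynein heavy chains (squares) and 68 other members (circles), with black bars for the median of all tested genes under 2, 2 to 4, 4 to 8 and over 8 kb. In Falcor-/- minus wild type the members descend with length along the bars, and in Foxa2+/- minus Falcor-/- most members shorter than 8 kb lie below the bars.

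Other cilia genes, from lists outside the naming rule, gave the following counts. The axonemal and regulator lists share genes with the ciliated-cell markers above, so their counts are not separate from those of the markers. Of 22 further axonemal genes, 0 passed in Falcor-/- against wild type (limma, 8 at an unadjusted p under 0.05), with 19 means above wild type. In Foxa2+/- 0 passed (3 at an unadjusted p under 0.05), with all 22 means below wild type. Between Foxa2+/- and Falcor-/- 11 of the 22 were lower (median -0.53), beside 8.56% of all genes lower, and between double-heterozygous and Foxa2+/- all 22 means were higher but 0 passed (13 at an unadjusted p under 0.05).

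Of 27 genes of intraflagellar transport, which carries parts along the cilium, 3 rose in Falcor-/- against wild type (Cluap1, Hspb11 and Ift27), 11.1% beside 5.23% of all genes higher. In Foxa2+/- 8 of the 27 were lower than in Falcor-/-, 29.6% beside 8.56% of all genes. In double-heterozygous libraries Ift81 rose against wild type, 3.70% of the 27 and below the 7.21% of all genes called higher. Kif3a and Kifap3 were higher than in Foxa2+/-, 7.41% beside 1.06% of all genes.

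Of 12 regulators of multiciliated cells, Ccno and Cdc20b rose in Falcor-/- against wild type, 16.7% beside 5.23% of all genes higher. Ccno, Cdc20b, Foxj1, Myb and Trp73 were lower in Foxa2+/- than in Falcor-/-, 41.7% beside 8.56% of all genes. In double-heterozygous libraries Myb was higher than in Foxa2+/-, 8.33% of the 12 beside 1.06% of all genes. Gmnc was higher than in Falcor-/-, 8.33% beside 2.15%. The level of Foxj1 was 14.67 ± 0.20 for wild-type, 14.80 ± 0.33 for Falcor-/-, 14.18 ± 0.34 for Foxa2+/- and 14.63 ± 0.11 for double-heterozygous libraries.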

How the data were processed

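The data are RNA-seq levels of EpCAM+ cells from 18 libraries of 4 genotypes. The authors deposited log2 levels of 15544 Ensembl genes per library. Per the submitters' processing notes, STAR, the mm9 genome and limma were used. Not given in the sources used here are versions, the read counter, the annotation and the strand setting. That the values are log2 and quantile normalized was inferred from the deposited values, which run from 1 to 18.73 and depart between libraries by at most 0.0512 at any rank in the top 90% of ranks. Depth is therefore unknown, and a change shared by most genes cannot be seen.

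Groups were taken from the genotype labels. limma 3.58.1 (R 4.3.3) fitted 1 mean per genotype over the 18 libraries with an intensity trend (14 residual degrees of freedom), after leaving out 295 genes with a mean under 6. The 6 contrasts were 2-sided, with Benjamini-Hochberg adjustment over 15249 genes and a threshold of 0.05. The steps were tested on simulated data. Python 3.11.15, pandas 2.3.3, scipy 1.17.1 and matplotlib 3.10.9 were used for the rest.

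Symbols (14994 of 15544 identifiers) and exonic lengths came from GENCODE vM21 (GRCm38), and promoters from RefSeq. No mm9 coordinate is given. Words of 50 bases were compared to find near copies.

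The members and gene lists were chosen with earlier results of these data known. Named were all members called against wild type, up to 5 per comparison of mutants by p, the highest and the smallest-p member of each role, 10 role representatives and the extremes of level. Alternatives were other filters (none, or a mean of at least 8), 2 genotypes alone, library weights, no trend, an endothelial covariate, pan-epithelial centring and leaving out each library. Added after seeing the data were a ciliated marker covariate, a length correction (lowess span 0.3) and leaving out libraries 7 and 13 together.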

Additional observations from a re-analysis of the deposited data

Results flagged for a closer look

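Of 128 groups of 4 or 5 libraries examined for the named members by Dixon's test, 5 held a library that stood apart from the rest of its genotype. Chance alone gives about 1 in 20 groups. AU040972, the non-coding transcript, was 12.08 log2 units in Falcor-/- library 7, with the other 4 at 12.95 to 13.28. Cfap126, a microtubule inner protein, was 11.41 in Foxa2+/- library 13, with the others at 11.98 to 12.06. The spoke head gene Rsph1 was 13.90 in wild-type library 5, against 12.62 to 12.99, and the central pair gene Cfap69 was 12.67 in wild-type library 4, against 12.42 to 12.45. Iqce was 12.61 in Falcor-/- library 6, with the others at 12.15 to 12.21.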

How the results depend on the processing

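No paired analysis was possible because the replicate numbers 1 to 18 are not shared between genotypes. Over the 34 calls of named members, 34 were kept with no filter, 33 with library weights, 33 without the intensity trend, 28 with the length correction, 21 with pan-epithelial centring, 25 without libraries 7 and 13, 16 with only the 2 genotypes compared (fewer samples), 5 with the ciliated and 2 with the endothelial covariate. With the ciliated covariate, Foxa2+/- minus Falcor-/- turned to 0.0196 for Cfap298, 0.0806 for Dnali1 and 0.0172 for Spag6l. Leaving out 1 library kept 187 of 309 calls.

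The number of members called in Falcor-/- against wild type (7) was 3 with 2 genotypes, 21 with weights, 0 and 1 with the endothelial and ciliated covariates and 31 without both libraries, and 1 to 29 with 1 library left out. In Foxa2+/- against wild type (3) it was 8 with weights, 0 with the endothelial covariate, 25 with centring, 6 with the length correction and 1 without both libraries, and 1 to 3 with 1 left out. In double-heterozygous against wild type (2) it was 4 with 2 genotypes, 15 with weights, 0 and 1 with the endothelial and ciliated covariates and 1 with the length correction, and 0 to 3 with 1 left out. In Foxa2+/- against Falcor-/- (32) it was 7 with 2 genotypes and 0 with either covariate, and 7 to 44 with 1 left out. In double-heterozygous against Foxa2+/- (4) it was 32 with weights, 2 with the endothelial covariate, 0 with centring and with the ciliated covariate, 9 with the length correction and 0 without both libraries, and 0 to 5 with 1 left out. In double-heterozygous against Falcor-/- (3) it was 1 with 2 genotypes, 0 with the endothelial covariate and 5 with centring, with the ciliated covariate and without both libraries, and 0 to 4 with 1 left out. The causes of these differences were not tested. With the endothelial covariate few genes of any kind passed. Over all genes the number called was 0 in Foxa2+/- against wild type and 13 in Foxa2+/- against Falcor-/-. For the other settings, and with libraries left out, the number of all genes called is not given here, so these member counts stand without a background. The depth behind the levels is unknown, so counting error cannot be given.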
